A study of Homo sapiens with 21 samples.

Results

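The RNA of asparagine-starved RS4;11 cells given iron with the ionophore hinokitiol was compared with the RNA of starved cells given neither. RS4;11 is an established precursor B-cell leukaemia line with a KMT2A-AFF1 fusion. The comparison takes 6 of the 21 samples in the series and the 60558 genes on primary chromosomes out of 66738 in the count table. The -Asn group (3 RNA libraries) was kept for 24 h without asparagine. The -Asn+Fe group (3 RNA libraries) was kept without asparagine for the same time, with ferric nitrate at 10 µM and hinokitiol at 0.75 µM. A further group in complete medium (+Asn, 3 RNA libraries) entered the same fit and is given for reference. All groups are the same cell line, and both groups compared lack asparagine. Iron and hinokitiol were given together, with no group given hinokitiol alone and none given iron in complete medium, so their effects cannot be told apart. Nothing in the labels ties the 3 libraries of a group to different cultures, and the p-values therefore measure a spread between libraries that may be technical.

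Hinokitiol is a small molecule that binds ferric iron and carries it across membranes. Cells read their iron through iron regulatory proteins, which in low iron stabilise the transferrin receptor mRNA and hold back translation of ferritin, and whose grip is released as iron rises. Redox-active iron, heme and electrophiles also act on the NRF2 and BACH1 pair: NRF2 activates, and BACH1 represses, genes with antioxidant response elements, among them the ferritin chains, heme oxygenase 1 and the enzymes that make and recycle glutathione.

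The 9 RNA libraries held 29362707 to 42478518 counts. Levels are given as CPM, the count scaled to library size with TMM factors that correct for composition, and each log2 fold change is -Asn+Fe over -Asn with its standard error (SE). A gene is called where the edgeR quasi-likelihood test gives a Benjamini-Hochberg adjusted p under 0.05 over all 17692 genes tested. The -Asn replicate 1 library stood apart: its counts differed from those of the other -Asn libraries by a chi-square of 41.2 and 45.5 per degree of freedom, against 6.23 between those 2 and 3.94 to 9.15 among the -Asn+Fe libraries. List counts that move by over 1.5 times without it are given beside the list. Precursor B markers were at high levels in all libraries, with a summed level of 4792 to 4914 CPM in -Asn and 4266 to 4389 CPM in -Asn+Fe, and 2 of 20 were called higher and 9 lower. The summed T and NK marker level was 329 to 406 CPM in -Asn and 278 to 308 CPM in -Asn+Fe, nearly all of it TRAC and NKG7, with CD3D, CD3E and CD3G under 0.1 CPM in each of the 6 libraries. The summed level of 14 myeloid markers was 30.5 to 33.0 CPM in -Asn and 35.9 to 38.3 CPM in -Asn+Fe, most of it from CSF1R and CEBPA, with S100A8 and ELANE at 0.114 CPM or less. In the 6 libraries of -Asn and -Asn+Fe, erythroid and megakaryocyte markers summed to 9.36 CPM or less and stromal markers to 39.7 CPM or less, with 4 of the 12 former at 0. Stromal markers summed to 51.0 to 56.7 CPM in +Asn. The part of these marker differences in the results was not tested.

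Of the 17692 genes tested, 5518 were called (31.2%): 2507 were higher in -Asn+Fe (14.2%) and 3011 were lower (17%). Most of the changes were small: 62% of the called genes changed by less than 1.5-fold, while 595 (3.36%) were at least 2-fold higher and 344 (1.94%) at least 2-fold lower. The -Asn and -Asn+Fe libraries did not overlap, in either direction, for 7688 of the genes tested (43.5%). The called genes leaned lower under TMM scaling (45.4% higher) and higher under upper-quartile scaling (56.9% higher), which shifted the median gene by 0.0544 on the log2 scale. The median log2 fold change of all genes was -0.01, and every list below is set beside that value and the 14.2% and 17% called.

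**Figure D1:**
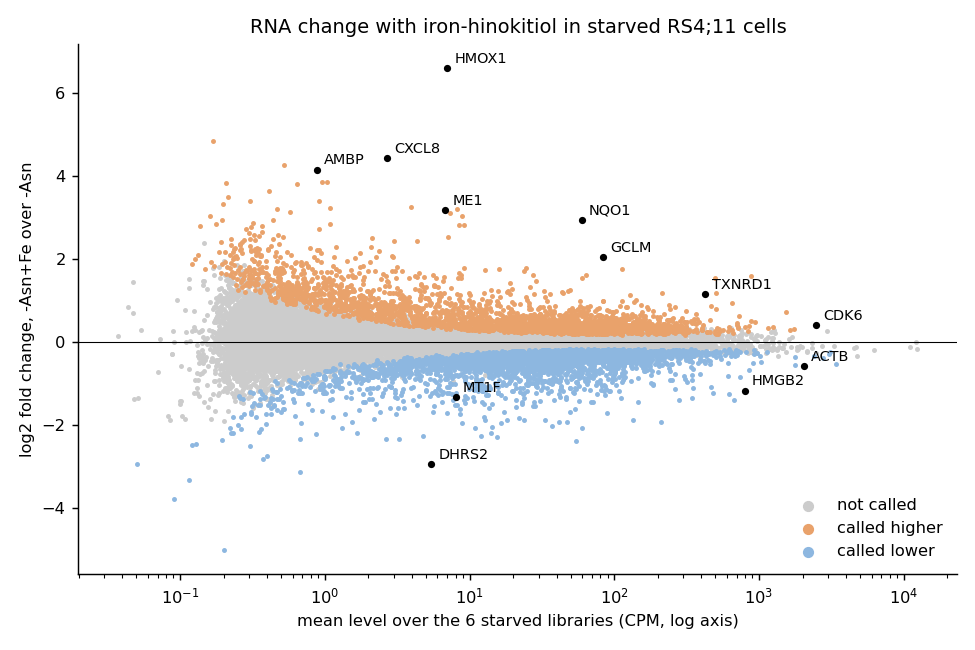
Log2 fold change, -Asn+Fe over -Asn, against the mean level over the 6 starved libraries (CPM, log axis) for 17692 genes, with called genes in colour and named genes in black. HMOX1 lies highest among the labelled genes, and DHRS2 lowest.

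Antioxidant genes had the highest median of the 33 pathway lists. Of 37 listed NRF2 and BACH1 targets, 32 passed the filter on low counts, and 26 of these were called higher and 0 lower, 13 of them by at least 2-fold, with a median log2 fold change of 0.91. The 6 that were not called (ABCC1, BLVRB, ABCC4, CBR1, PRDX1 and AKR1B1) had log2 fold changes of 0.10 to 0.33. Among those that rose, ME1, the cytosolic malic enzyme that makes NADPH, stood at 1.31, 1.48 and 1.27 CPM in -Asn and 12.3, 11.8 and 12.4 CPM in -Asn+Fe, a log2 fold change of 3.17 ± 0.18 SE (edgeR adjusted p = 2.58e-09). The -Asn+Fe libraries lay close together and far above all the -Asn libraries. GCLM, the modifier subunit of the enzyme that starts glutathione synthesis, stood at 29, 34.2 and 34.8 CPM in -Asn and 138, 128 and 138 CPM in -Asn+Fe, a log2 fold change of 2.04 ± 0.08 SE (edgeR adjusted p = 8.31e-11). TXNRD1, which reduces thioredoxin, stood at 250.3, 273 and 268 CPM in -Asn and 584, 582 and 576 CPM in -Asn+Fe, a log2 fold change of 1.14 ± 0.07 SE (edgeR adjusted p = 3.18e-09). In +Asn TXNRD1 averaged 474 ± 14.7 (SD, n = 3) CPM, so its level in -Asn was lower than in complete medium and its level in -Asn+Fe higher. PIR, an iron-binding nuclear protein, stood at 13.2, 9.97 and 10.2 CPM in -Asn and 36.2, 41.3 and 36.9 CPM in -Asn+Fe, a log2 fold change of 1.78 ± 0.11 SE (edgeR adjusted p = 5.53e-09). GSR, which recycles oxidised glutathione, stood at 40.2, 42.1 and 40.4 CPM in -Asn and 75.6, 73.4 and 75.3 CPM in -Asn+Fe, a log2 fold change of 0.87 ± 0.06 SE (edgeR adjusted p = 3.43e-08).

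HMOX1, which splits heme into iron, carbon monoxide and biliverdin, was nearly silent in -Asn. It stood at 0.187, 0.148 and 0.0923 CPM in -Asn and 12.1, 12.9 and 16.4 CPM in -Asn+Fe, a log2 fold change of 6.59 ± 0.24 SE (edgeR adjusted p = 3.63e-11), from 17 counts summed over the -Asn libraries to 1527 over the -Asn+Fe libraries. No library of one group came near those of the other.

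**Figure D2:**
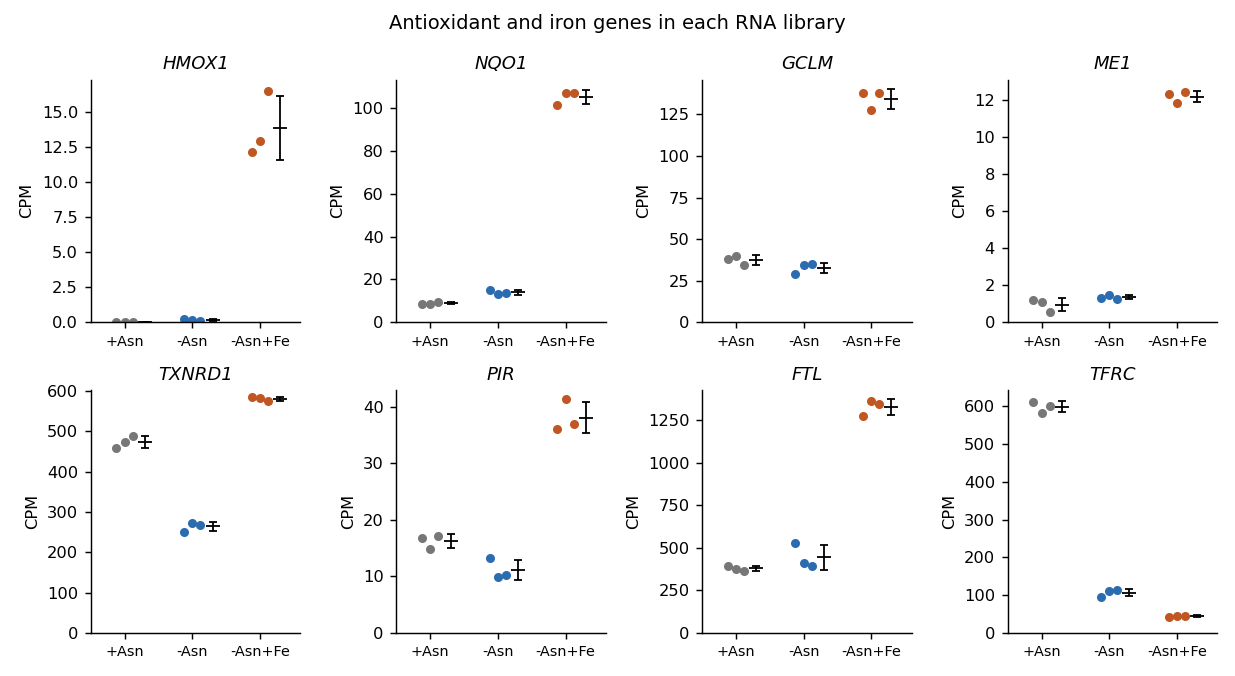
Levels (CPM, linear axes from 0) of 8 antioxidant and iron genes in each of the 9 RNA libraries, with points for libraries and bars for mean ± SD (n = 3). In -Asn+Fe, TFRC is the lowest of the 3 groups and the other 7 genes the highest.

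Promoter windows from RefSeq (GRCh38.p14; 250 bases before a gene's start to 50 after it, 27305 windows) were searched on both strands for motifs of factors with a known role in these lists. A high share of matches in such a list was therefore likely from the start and does not bear on the RNA change. The antioxidant response element, TGACNNNGC, was found in 9 of the 27 windows of the NRF2 and BACH1 list (33.3%), in 15.3% of the windows of all tested genes and in 13.6% of all windows, of which 3702 hold it, 154 of them overlapping an AP-1 site (TGAGTCA). These sequences show where it lies in 4 promoters of genes that rose, with the match in capitals. In ME1 and LUCAT1 the match also holds a full AP-1 site, on one strand or the other, so the motifs cannot be told apart there. A match is a description of the letters and not a binding site.
GCLM, chr1:93909431-93909510, minus strand: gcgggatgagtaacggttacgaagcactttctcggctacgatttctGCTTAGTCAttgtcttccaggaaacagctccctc
TXNRD1, chr12:104215649-104215728, plus strand: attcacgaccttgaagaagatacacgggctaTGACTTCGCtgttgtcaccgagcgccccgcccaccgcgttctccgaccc
ME1, chr6:83431142-83431221, minus strand: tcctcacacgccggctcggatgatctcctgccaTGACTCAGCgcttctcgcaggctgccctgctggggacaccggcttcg
LUCAT1, a long noncoding RNA, chr5:91314423-91314502, minus strand: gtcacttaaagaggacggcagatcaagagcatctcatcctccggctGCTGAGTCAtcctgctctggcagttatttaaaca
LUCAT1 stood at 1.98, 1.94 and 1.85 CPM in -Asn and 17, 14.1 and 16.2 CPM in -Asn+Fe, a log2 fold change of 3.04 ± 0.14 SE (edgeR adjusted p = 4.11e-10). In the windows of genes called at least 2-fold higher, the antioxidant element was found in 14.8% and the AP-1 site in 11.0%, against 15.3% and 3.06% of the windows of all tested genes.

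Of 10 regulators of this pathway, 5 were called higher and 1 lower, with a median log2 fold change of 0.25. MAFG, a small MAF protein that pairs with both NRF2 and BACH1, stood at 178, 166 and 157 CPM in -Asn and 305, 303 and 320.3 CPM in -Asn+Fe, a log2 fold change of 0.89 ± 0.07 SE (edgeR adjusted p = 1.72e-07). BACH1 itself stood at 74.7, 109 and 113 CPM in -Asn and 153, 141 and 149 CPM in -Asn+Fe, a log2 fold change of 0.58 ± 0.11 SE (edgeR adjusted p = 0.00151). NFE2L2, the gene for NRF2, stood at 166, 149 and 166 CPM in -Asn and 197, 196 and 192 CPM in -Asn+Fe, a log2 fold change of 0.28 ± 0.07 SE (edgeR adjusted p = 0.00817). KEAP1, which targets NRF2 for degradation, did not pass the test (81, 75.4 and 72.3 CPM in -Asn and 75.6, 79.2 and 79.8 CPM in -Asn+Fe, a log2 fold change of 0.04 ± 0.08 SE (edgeR adjusted p = 0.774)).

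Both ferritin chains rose and the transferrin receptor fell, while the iron genes as a list went both ways. Of 20 tested iron genes, 6 were called higher and 4 lower, with a median log2 fold change of 0.07. FTL, the light chain of ferritin, rose from 525, 409 and 394 CPM in -Asn to 1271, 1363 and 1341 CPM in -Asn+Fe, a log2 fold change of 1.58 ± 0.10 SE (edgeR adjusted p = 4.54e-09). FTH1, the heavy chain, had a log2 fold change of 0.48 (edgeR adjusted p = 0.00184). TFRC, the transferrin receptor through which iron is taken up, fell from 95.6, 110.0 and 114 CPM in -Asn to 41.9, 45.8 and 45.3 CPM in -Asn+Fe, a log2 fold change of -1.26 ± 0.08 SE (edgeR adjusted p = 4.55e-09). TFRC had averaged 599 ± 14.8 (SD, n = 3) CPM in +Asn, so it was lower in -Asn and lower again in -Asn+Fe. SLC39A14, a transporter of iron and zinc, rose from 32.7, 38.6 and 39.2 CPM in -Asn to 52, 56 and 52.7 CPM in -Asn+Fe, a log2 fold change of 0.54 ± 0.08 SE (edgeR adjusted p = 7.73e-05). PCBP1 and PCBP2, iron chaperones for ferritin, both fell, by 0.27 on the log2 scale each. SLC40A1, the iron exporter ferroportin, stayed under 0.5 CPM in all 6 libraries and was not called.

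Heme genes went both ways. Of 17 tested, 6 were called higher and 6 lower; 3 were called lower without -Asn+Fe replicate 1, 3 without replicate 3 and 4 without -Asn replicate 1. Some transporters rose: ABCB6, a transporter of porphyrins, stood at 1.31, 1.75 and 1.22 CPM in -Asn and 3.88, 4.02 and 3.84 CPM in -Asn+Fe, a log2 fold change of 1.45 ± 0.18 SE (edgeR adjusted p = 1.25e-05). SLC48A1, which exports heme from the lysosome, stood at 10.1, 8.71 and 9.19 CPM in -Asn and 18.4, 17.4 and 19.3 CPM in -Asn+Fe, a log2 fold change of 0.98 ± 0.12 SE (edgeR adjusted p = 1.03e-05). ABCB10, a mitochondrial transporter of the heme pathway, stood at 13.3, 14.2 and 15.3 CPM in -Asn and 28.5, 20.8 and 24.6 CPM in -Asn+Fe, a log2 fold change of 0.79 ± 0.10 SE (edgeR adjusted p = 1.81e-05), after averaging 77.6 ± 0.906 (SD, n = 3) CPM in +Asn. Of the enzymes of synthesis, PPOX stood at 14.5, 15 and 12.8 CPM in -Asn and 8.62, 8.56 and 8.79 CPM in -Asn+Fe, a log2 fold change of -0.70 ± 0.10 SE (edgeR adjusted p = 4.48e-05), and ALAD at 24.3, 22.4 and 24.9 CPM in -Asn and 18, 17.5 and 18 CPM in -Asn+Fe, a log2 fold change of -0.42 ± 0.08 SE (edgeR adjusted p = 5.02e-04). FECH, which inserts iron into the ring, was among those called higher, with a log2 fold change of 0.60.

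Iron-sulfur cluster and respiratory genes leaned lower. Of 23 cluster assembly genes, 7 were called lower and 1 higher, with a median of -0.16. BOLA3 and NFU1, which hand clusters to mitochondrial enzymes, fell by 0.89 and 0.81 on the log2 scale. FDXR, an NADPH-dependent reductase in cluster assembly and a p53 target, rose from 13.1, 11.5 and 10.3 CPM in -Asn to 18.2, 18.3 and 19.2 CPM in -Asn+Fe, a log2 fold change of 0.68 ± 0.11 SE (edgeR adjusted p = 1.75e-04). Of 58 nuclear-encoded respiratory chain subunits, 27 were called lower and 0 higher, with a median of -0.27; leaving out -Asn+Fe replicate 1 left 12 called lower and leaving out -Asn+Fe replicate 3 left 17. Without -Asn replicate 1, 1 subunit was called higher and 19 lower; that library lay 0.33 above the other -Asn libraries, on the log2 scale, at the median subunit. Of 9 tested genes of metallothioneins and zinc transport, 3 were called lower, all of them metallothioneins, small proteins that bind zinc and copper. The 2 called higher were the zinc transporters SLC39A10 and SLC30A5, with log2 fold changes of 0.32 and 0.21; 1 or 0 were called higher when any 1 library other than -Asn replicate 3 was left out. MT2A had a log2 fold change of -0.37 and was called with all libraries, but not when any 1 library other than +Asn replicate 2 or -Asn replicate 3 was left out. MT1F stood at 14, 10.3 and 10.1 CPM in -Asn and 4.34, 4.47 and 4.75 CPM in -Asn+Fe, a log2 fold change of -1.34 ± 0.13 SE (edgeR adjusted p = 1.49e-06), and MT1E at 10.1, 7.53 and 8.38 CPM in -Asn and 4.06, 3.73 and 3.84 CPM in -Asn+Fe, a log2 fold change of -1.15 ± 0.13 SE (edgeR adjusted p = 7.68e-06).

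Heat shock genes leaned higher in -Asn+Fe, after lower levels in -Asn than in +Asn. Of 19 tested chaperone and co-chaperone genes, 12 were called higher and 0 lower, with a median log2 fold change of 0.36. In -Asn over +Asn, a comparison that shares the -Asn libraries, 14 of the 19 were called lower and 2 higher, beside 30.4% lower and 31.2% higher of all genes, with a median of -1.22. HSPA8, the constitutive HSP70, rose from 498, 413 and 431 CPM in -Asn to 823, 871 and 865 CPM in -Asn+Fe, a log2 fold change of 0.93 ± 0.08 SE (edgeR adjusted p = 2.34e-07), against 1541 ± 55 (SD, n = 3) CPM in +Asn. DNAJA1, its co-chaperone, rose from 360.1, 304 and 332 CPM in -Asn to 613, 595 and 603 CPM in -Asn+Fe, a log2 fold change of 0.86 ± 0.08 SE (edgeR adjusted p = 4.08e-07), against 606 ± 40 (SD, n = 3) CPM in +Asn. The heat shock element was found in 5 of the 21 windows of this list (23.8%), in 0.343% of the windows of all tested genes and in 0.487% of all windows. Both promoters hold it, in capitals.
HSPA8, chr11:123062277-123062376, minus strand: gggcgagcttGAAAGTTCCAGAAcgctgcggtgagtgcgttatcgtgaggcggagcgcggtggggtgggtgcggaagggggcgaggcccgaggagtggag
DNAJA1, chr9:33025213-33025292, plus strand: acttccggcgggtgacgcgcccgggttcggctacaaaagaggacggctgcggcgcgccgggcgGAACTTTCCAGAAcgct

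Counts for the ATF4 and endoplasmic reticulum stress lists depended on -Asn replicate 1. Of 38 listed ATF4 targets, 14 were called higher and 4 lower, with a median of 0.17. Without -Asn replicate 1, 21 were called higher, and leaving out any 1 of the other libraries gave 10 to 15. Without -Asn+Fe replicate 1, 2 were called lower, and 2 without replicate 3. GDF15, a secreted stress cytokine, rose from 7.03, 5.59 and 5.19 CPM in -Asn to 18.3, 20.3 and 20.5 CPM in -Asn+Fe, a log2 fold change of 1.73 ± 0.13 SE (edgeR adjusted p = 4.75e-08). ATF4 and DDIT3 were not called: ATF4 had a log2 fold change of -0.09 (edgeR adjusted p = 0.479) and DDIT3 of 0.00 (edgeR adjusted p = 0.997), with groups that overlap for both. Without -Asn replicate 1, DDIT3 was called higher, with a log2 fold change of 0.16 (edgeR adjusted p = 0.0329). DNAJB9, an ER co-chaperone, rose from 110.2, 103 and 108 CPM in -Asn to 206, 185 and 198 CPM in -Asn+Fe, a log2 fold change of 0.88 ± 0.07 SE (edgeR adjusted p = 5.56e-08). Of the 23 genes of the unfolded protein response, 7 were called higher and 1 lower; without -Asn replicate 1, 13 were called higher.

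Most tested targets of p53, the factor that halts the cycle or starts death after damage, rose. Of 30 tested p53 targets, 23 were called higher and 0 lower, with a median of 0.54. In -Asn over +Asn, a comparison that shares the -Asn libraries, 19 of the 30 were called higher and 7 lower, with a median of 0.66. Of all genes, 31.2% were called higher and 30.4% lower in that comparison. MDM2, which degrades p53, rose from 259, 335 and 343 CPM in -Asn to 732, 663 and 717 CPM in -Asn+Fe, a log2 fold change of 1.17 ± 0.09 SE (edgeR adjusted p = 1.12e-07), against 376 ± 13.1 (SD, n = 3) CPM in +Asn. EDA2R, a cell surface receptor, rose from 14.4, 15.6 and 16.1 CPM in -Asn to 43, 41.8 and 42.8 CPM in -Asn+Fe, a log2 fold change of 1.47 ± 0.08 SE (edgeR adjusted p = 2.73e-09). PLK2 rose from 27.5, 25.5 and 28.8 CPM in -Asn to 57.9, 64.1 and 62 CPM in -Asn+Fe, a log2 fold change of 1.17 ± 0.08 SE (edgeR adjusted p = 1.29e-08). BAX, BBC3 and DDB2, also on the list, were not called, with log2 fold changes of 0.19, 0.16 and -0.09.

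Every tested gene of the S phase list and of the mitosis list was lower. Of 50 S phase and E2F target genes, 50 were called lower, with a median of -0.93, and of 46 G2 and mitosis genes, 46 were called lower, with a median of -1.10. The smallest count of mitosis genes called lower when 1 library was left out was 44. RRM2, the small subunit of ribonucleotide reductase, stood at 201, 215 and 220.4 CPM in -Asn and 57.2, 60.5 and 54 CPM in -Asn+Fe, a log2 fold change of -1.89 ± 0.07 SE (edgeR adjusted p = 3.85e-11). CLSPN, which signals stalled forks, stood at 81.1, 70.5 and 72.2 CPM in -Asn and 19.6, 20.9 and 18.3 CPM in -Asn+Fe, a log2 fold change of -1.93 ± 0.08 SE (edgeR adjusted p = 1.03e-10). AURKB, a mitotic kinase, stood at 74.2, 63.4 and 59.7 CPM in -Asn and 17.1, 17.5 and 16.7 CPM in -Asn+Fe, a log2 fold change of -1.94 ± 0.08 SE (edgeR adjusted p = 1.32e-10). The 3 groups of CLSPN did not overlap, with 285 ± 15.8 (SD, n = 3) CPM in +Asn. MKI67, a marker of cycling cells, stood at 730.3, 941 and 942 CPM in -Asn and 364, 383 and 345 CPM in -Asn+Fe, a log2 fold change of -1.26 ± 0.10 SE (edgeR adjusted p = 1.60e-07), against 1674 ± 185 (SD, n = 3) CPM in +Asn. In bulk RNA, fewer cells in a phase and less RNA per cell cannot be told apart.

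Of 23 homologous recombination and Fanconi genes, 18 were called lower and 1 higher. The gene called higher was the kinase ATM, with a log2 fold change of 0.34 that was not called without +Asn replicate 1 or 2 or without any 1 of the -Asn+Fe libraries. Leaving out -Asn replicate 1, 2 or 3 gave 2, 2 and 3 called higher. Among 15 G1 genes, 3 were higher and 5 lower; CDK2, the kinase of cyclins E and A, fell from 46.7, 47.6 and 48.7 CPM in -Asn to 23.1, 25 and 23.9 CPM in -Asn+Fe, a log2 fold change of -0.99 ± 0.07 SE (edgeR adjusted p = 1.29e-08), and the CDK inhibitor CDKN1A rose from 205, 187 and 179.6 CPM in -Asn to 323, 350.4 and 343 CPM in -Asn+Fe, a log2 fold change of 0.83 ± 0.09 SE (edgeR adjusted p = 3.51e-06). HMGB2, a chromatin protein that peaks in cycling cells, fell from 1265, 971 and 1077 CPM in -Asn to 492, 507 and 466 CPM in -Asn+Fe, a log2 fold change of -1.18 ± 0.09 SE (edgeR adjusted p = 5.77e-08).

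**Figure D3:**
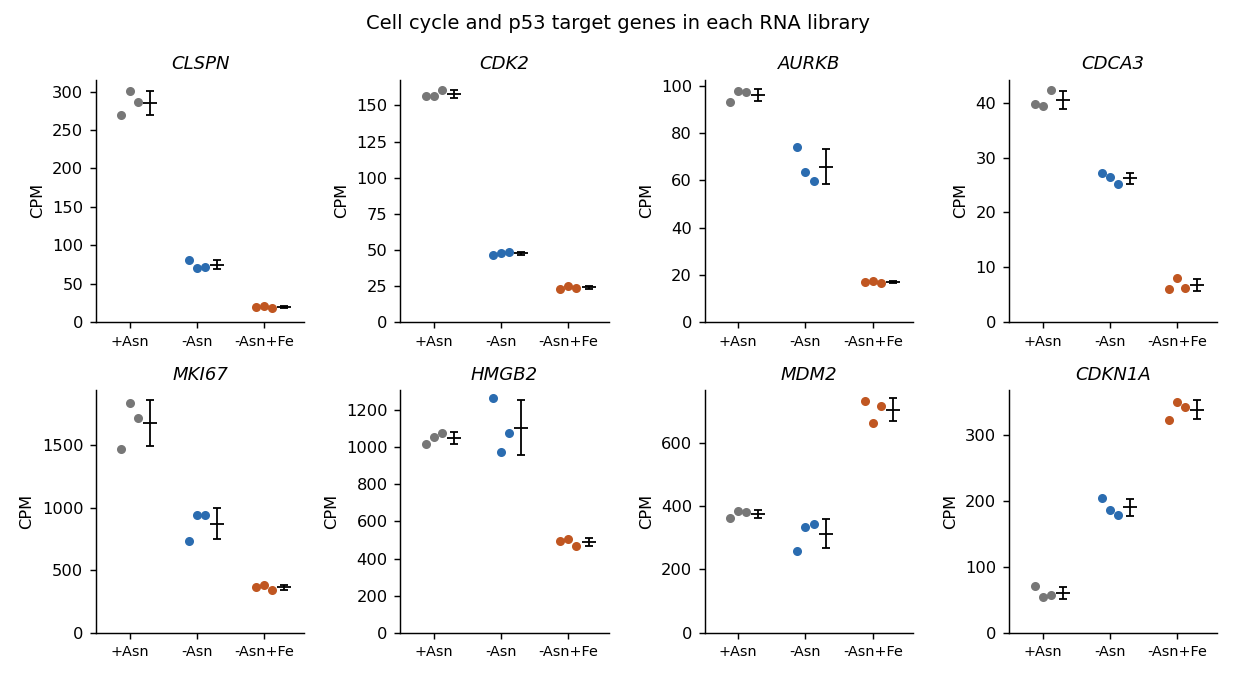
Levels (CPM, linear axes from 0) of 6 cell cycle genes and 2 p53 targets in each of the 9 RNA libraries, with points for libraries and bars for mean ± SD (n = 3). In -Asn+Fe the cell cycle genes are at their lowest and MDM2 and CDKN1A at their highest.

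The motifs of cell cycle control were searched in the same windows. The E2F sites TTTGGCGC, TTTCCCGC and TTTCGCGC were found in 22 of the 44 windows of S phase genes (50%), in 4.44% of the windows of all tested genes and in 2.79% of all windows. The cell cycle homology region, TTTGAA, was found in 27 of the 40 windows of G2 and mitosis genes (67.5%), in 10.3% and in 15.4%. TTTGAA was also found in 20.3% of the windows of genes called at least 2-fold higher and in 24.7% of those at least 2-fold lower. The promoters below hold these motifs, in capitals.
CLSPN, chr1:35769969-35770038, minus strand: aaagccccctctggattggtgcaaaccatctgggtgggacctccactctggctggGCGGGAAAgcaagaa
CDCA3, chr12:6851277-6851346, minus strand: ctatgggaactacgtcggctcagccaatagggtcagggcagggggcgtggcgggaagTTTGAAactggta
MKI67, chr10:128126424-128126513, minus strand: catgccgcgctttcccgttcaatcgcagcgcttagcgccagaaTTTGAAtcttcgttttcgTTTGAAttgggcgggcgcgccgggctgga
CDCA3, a gene of mitotic entry, stood at 27.1, 26.5 and 25.1 CPM in -Asn and 6.03, 8.08 and 6.20 CPM in -Asn+Fe, a log2 fold change of -1.96 ± 0.10 SE (edgeR adjusted p = 1.22e-09).

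**Figure D4:**
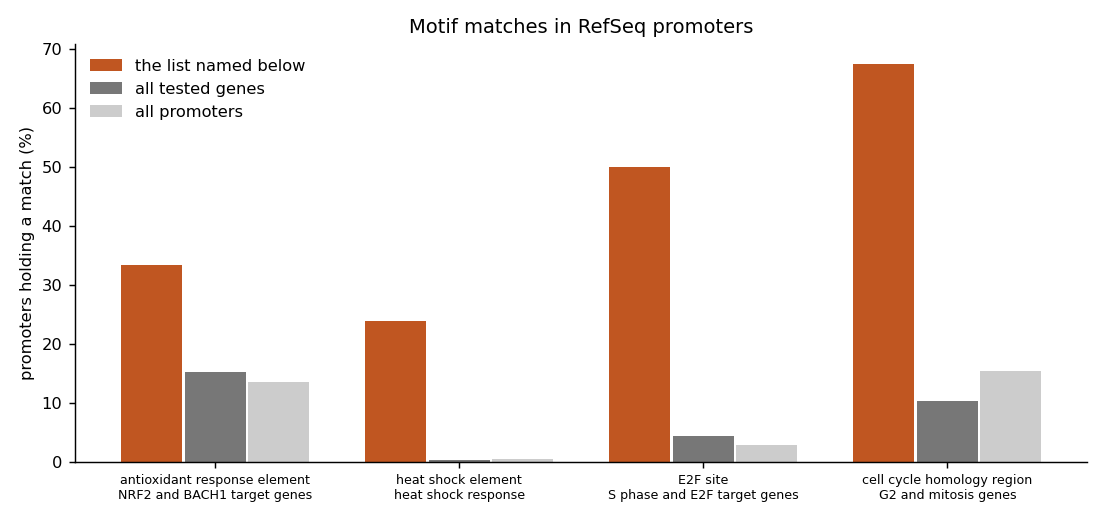
Share of RefSeq promoter windows (%) holding a match to each of 4 motifs, in the gene list named below each group of bars, in all tested genes and in all windows. The list's bar is the tallest in each of the 4 groups, at 33.3%, 23.8%, 50% and 67.5%. Each motif is that of factors with a known role in its list, so these shares do not bear on the RNA change.

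Most tested genes of NF-kB signalling rose. Of 33 listed, 25 passed the filter on low counts, and 5 had 0 counts in the 6 libraries of -Asn and -Asn+Fe. Of the 25 tested, 17 were called higher and 0 lower, with a median of 0.68. CXCL8, a chemokine for neutrophils, stood at 0.0535, 0.369 and 0.277 CPM in -Asn and 4.65, 6.34 and 4.55 CPM in -Asn+Fe, a log2 fold change of 4.42 ± 0.37 SE (edgeR adjusted p = 2.65e-07), from 29 counts in the -Asn libraries. TNFAIP3, a ubiquitin-editing brake on the pathway, stood at 29.7, 32.8 and 32.1 CPM in -Asn and 95.6, 91.8 and 98.5 CPM in -Asn+Fe, a log2 fold change of 1.6 ± 0.07 SE (edgeR adjusted p = 1.37e-10). CD40, a receptor of B cells, stood at 4.07, 4.33 and 3.92 CPM in -Asn and 12.1, 12.6 and 13.8 CPM in -Asn+Fe, a log2 fold change of 1.64 ± 0.13 SE (edgeR adjusted p = 8.95e-08). RELA and NFKB1, which encode the main subunits, were not called, with log2 fold changes of -0.16 and 0.17. AP-1 and immediate early genes went both ways, with 8 higher and 8 lower of 27, and 11 higher without -Asn replicate 1. FOSL1, a FOS-family factor, rose from 0.856, 0.566 and 0.485 CPM in -Asn to 2.99, 3.73 and 4.01 CPM in -Asn+Fe, a log2 fold change of 2.50 ± 0.30 SE (edgeR adjusted p = 1.25e-05), while NR4A2, a nuclear receptor, fell from 26.6, 23.9 and 29.1 CPM in -Asn to 8.71, 7.89 and 7.80 CPM in -Asn+Fe, a log2 fold change of -1.71 ± 0.11 SE (edgeR adjusted p = 8.52e-09), and KLF2 from 15.9, 14.5 and 11.1 CPM in -Asn to 4.32, 6.89 and 5.12 CPM in -Asn+Fe, a log2 fold change of -1.36 ± 0.17 SE (edgeR adjusted p = 2.36e-05). NR4A2 and KLF2 averaged 2.29 ± 0.317 (SD, n = 3) and 0.536 ± 0.170 (SD, n = 3) CPM in +Asn.

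**Figure D5:**
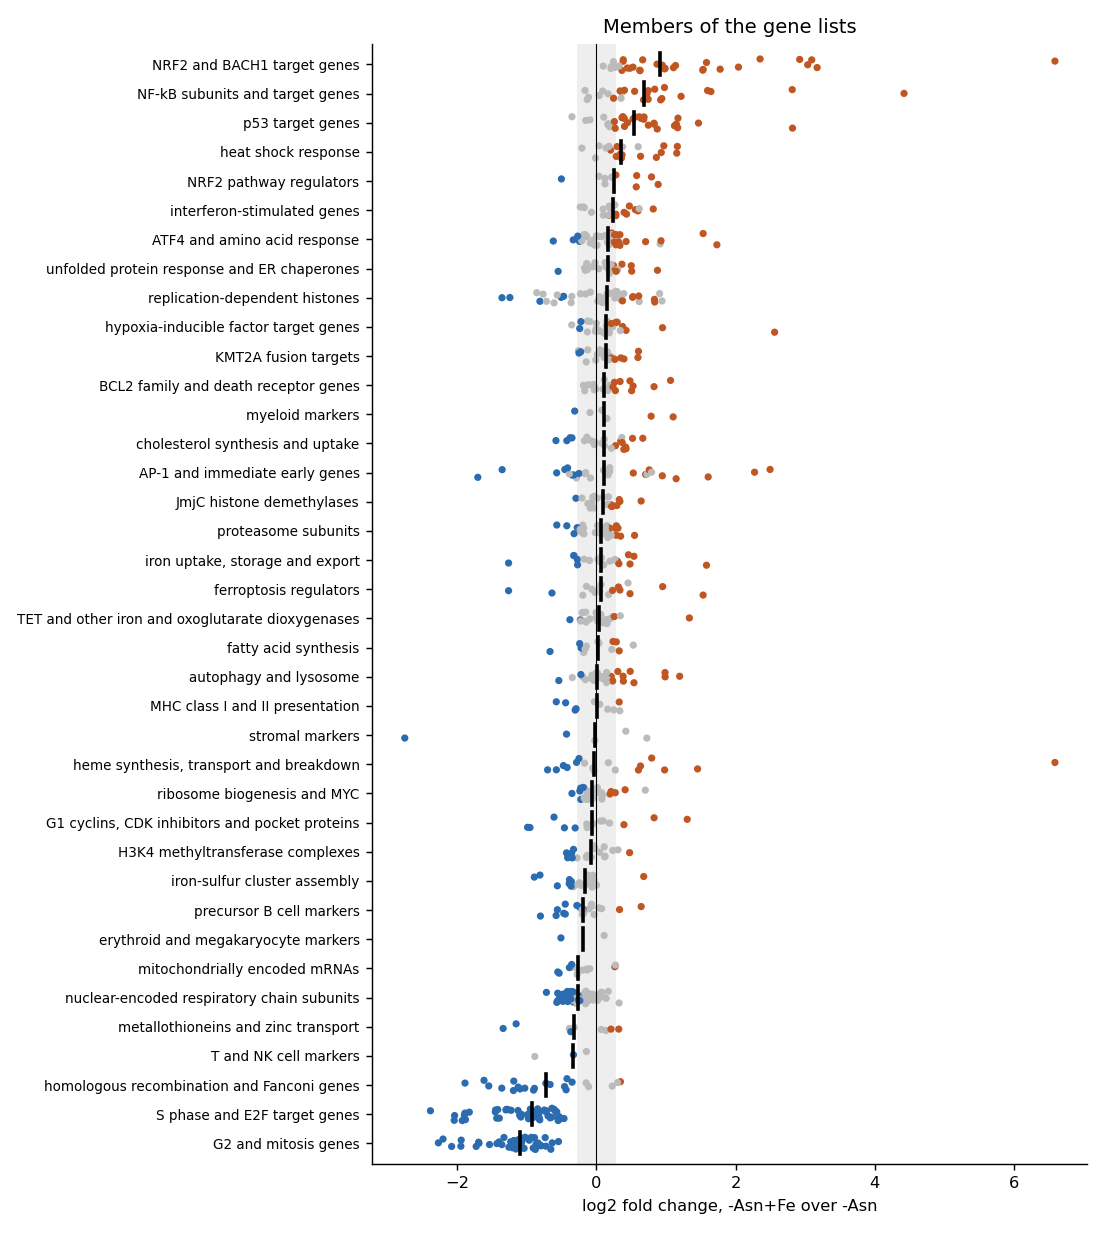
Log2 fold change, -Asn+Fe over -Asn, of each tested member of the 33 pathway lists and 5 marker lists, with members called higher in orange, called lower in blue, list medians as black bars and the interquartile range of all genes shaded. The NRF2 and BACH1 list has the highest median (0.91) and the G2 and mitosis list the lowest (-1.10).

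Regulators of ferroptosis, a death by iron-driven lipid peroxidation, included 6 of 17 called higher and 2 lower. SLC7A11, which imports cystine for glutathione, stood at 177, 290.1 and 302 CPM in -Asn and 803, 680.5 and 745 CPM in -Asn+Fe, a log2 fold change of 1.53 ± 0.15 SE (edgeR adjusted p = 2.44e-06). LPCAT3, which places polyunsaturated fatty acids in phospholipids, stood at 34.5, 34.2 and 33.3 CPM in -Asn and 20.8, 23.1 and 21.6 CPM in -Asn+Fe, a log2 fold change of -0.64 ± 0.07 SE (edgeR adjusted p = 4.74e-06). GPX4, which reduces lipid peroxides, was not called, with a log2 fold change of -0.20. Among 23 BCL2 family and death receptor genes, 9 were called higher and 0 lower. TNFRSF10D, a decoy receptor for TRAIL, ranged from 9.15 to 12.04 CPM in -Asn and from 21.86 to 22.54 CPM in -Asn+Fe, a log2 fold change of 1.06 ± 0.11 SE (edgeR adjusted p = 1.55e-06). BCL2L11, the death activator BIM, rose from 29, 30.6 and 30.9 CPM in -Asn to 41.2, 46.1 and 41.4 CPM in -Asn+Fe, a log2 fold change of 0.51 ± 0.07 SE (edgeR adjusted p = 5.20e-05), against 78.5 ± 1.61 (SD, n = 3) CPM in +Asn.

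Of 32 autophagy and lysosome genes, 10 were called higher and 2 lower; 1 was called lower without +Asn replicate 3, -Asn replicate 2 or any 1 of the -Asn+Fe libraries. GABARAPL1, which builds the autophagosome membrane, stood at 28.9, 24.1 and 26.3 CPM in -Asn and 61.3, 63.1 and 57.4 CPM in -Asn+Fe, a log2 fold change of 1.2 ± 0.09 SE (edgeR adjusted p = 6.41e-08). SQSTM1, the cargo receptor p62 and also an NRF2 target, stood at 65, 49.7 and 54.1 CPM in -Asn and 109, 112 and 114 CPM in -Asn+Fe, a log2 fold change of 0.99 ± 0.09 SE (edgeR adjusted p = 4.92e-07). TFE3, a factor that drives lysosome genes, stood at 39.7, 38.4 and 37.6 CPM in -Asn and 73.7, 77.7 and 77.8 CPM in -Asn+Fe, a log2 fold change of 0.99 ± 0.07 SE (edgeR adjusted p = 2.74e-08). These levels were above those of all -Asn libraries in every -Asn+Fe library. The groups did not overlap, in either direction, for 43.5% of all genes tested. Of 26 hypoxia-inducible factor targets, 7 were called higher and 2 lower, with 1 lower without +Asn replicate 3 or -Asn replicate 1 or 3 and 0 without -Asn+Fe replicate 1 or 3. VEGFA, the angiogenic growth factor, rose from 187, 187 and 189.5 CPM in -Asn to 256, 246 and 254 CPM in -Asn+Fe, a log2 fold change of 0.43 ± 0.06 SE (edgeR adjusted p = 9.37e-05), against 6.98 ± 0.467 (SD, n = 3) CPM in +Asn.

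Many histone and DNA demethylases are dioxygenases that need iron and oxoglutarate. Of 21 JmjC histone demethylases, 7 were called higher and 1 lower; 4 were called higher when the second -Asn library or either of the first 2 -Asn+Fe libraries was left out, and without -Asn replicate 1, 3 were called lower. KDM7A rose from 48.9, 68.7 and 68.7 CPM in -Asn to 104, 94.1 and 93.1 CPM in -Asn+Fe, a log2 fold change of 0.64 ± 0.11 SE (edgeR adjusted p = 3.45e-04). Of 24 TET and other dioxygenases, 2 were called higher and 2 lower, with 4 higher without -Asn replicate 1 and 4 lower without -Asn replicate 3; leaving out any 1 of the other libraries gave 1 or 2 in each direction. Of 21 genes of H3K4 methyltransferase complexes, 6 were called lower and 1 higher, with 3 higher without -Asn replicate 2. MEN1, the scaffold menin, fell from 47.2, 41.4 and 38.2 CPM in -Asn to 30, 33 and 31.2 CPM in -Asn+Fe, a log2 fold change of -0.43 ± 0.08 SE (edgeR adjusted p = 8.65e-04), and SETD1A, a catalytic subunit, from 104, 113 and 114 CPM in -Asn to 81.7, 86.3 and 81 CPM in -Asn+Fe, a log2 fold change of -0.41 ± 0.07 SE (edgeR adjusted p = 2.56e-04), while its paralogue SETD1B rose from 81.6, 96.9 and 90.5 CPM in -Asn to 122, 125 and 127 CPM in -Asn+Fe, a log2 fold change of 0.48 ± 0.07 SE (edgeR adjusted p = 9.48e-05).

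Of 22 KMT2A fusion targets, 6 were called higher and 2 lower; 3 were higher without -Asn+Fe replicate 1, and 1 and 0 lower without -Asn+Fe replicate 2 and 3. HOXA6 rose from 7.22, 10.3 and 9.12 CPM in -Asn to 12.7, 14 and 13.8 CPM in -Asn+Fe, a log2 fold change of 0.60 ± 0.12 SE (edgeR adjusted p = 0.00117), while HOXA9 was not called, with a log2 fold change of 0.01. MEIS1 was among those called lower, with a log2 fold change of -0.25 (edgeR adjusted p = 0.00781). At the median fusion target, -Asn replicate 1 differed from the other -Asn libraries by -0.26 on the log2 scale. Among precursor B genes, RAG2, part of the recombinase that cuts antigen receptor genes, stood at 14.3, 13.5 and 16.7 CPM in -Asn and 24.6, 20.9 and 23.9 CPM in -Asn+Fe, a log2 fold change of 0.64 ± 0.09 SE (edgeR adjusted p = 7.42e-05). CD24, a surface glycoprotein of early B cells, stood at 110.2, 105 and 119 CPM in -Asn and 66.9, 64.6 and 59.6 CPM in -Asn+Fe, a log2 fold change of -0.81 ± 0.07 SE (edgeR adjusted p = 3.05e-07). Of 10 tested antigen presentation genes, 4 were called lower and 1 higher; without -Asn+Fe replicate 1, 2 were called lower. HLA-B stood at 96.2, 85 and 79.7 CPM in -Asn and 55.4, 61.3 and 58.1 CPM in -Asn+Fe, a log2 fold change of -0.58 ± 0.09 SE (edgeR adjusted p = 1.61e-04). Of 21 interferon-stimulated genes, 9 were called higher and 0 lower; IFIH1, a sensor of double-stranded RNA, rose from 19.8, 22.5 and 23 CPM in -Asn to 40.5, 34.4 and 40 CPM in -Asn+Fe, a log2 fold change of 0.82 ± 0.09 SE (edgeR adjusted p = 2.76e-06).

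Lists of growth and protein turnover had members called in both directions, beside 14.2% higher and 17% lower of all genes tested. The counts for ribosome biogenesis and histone genes lay near these shares. Of 23 cholesterol genes, 8 were called higher and 4 lower, with 2 lower without +Asn replicate 3, -Asn replicate 1 or -Asn+Fe replicate 1; INSIG1, which retains the sterol sensor in the ER, rose from 149, 156 and 159.8 CPM in -Asn to 209.5, 207 and 208 CPM in -Asn+Fe, a log2 fold change of 0.42 ± 0.06 SE (edgeR adjusted p = 8.95e-05). Of 13 fatty acid genes, 3 were called higher and 3 lower, with 1 lower without -Asn+Fe replicate 3. Of 30 proteasome subunits, 7 were called higher and 4 lower; without -Asn replicate 1, 13 were called higher, and without -Asn+Fe replicate 1 or 3, 2 were called lower. Of 29 ribosome biogenesis genes, 4 were called higher and 5 lower, with 1 in each direction without -Asn+Fe replicate 1 or 3; 2 were called higher without +Asn replicate 3 or -Asn replicate 1, 1 without +Asn replicate 2 or -Asn replicate 2, and 3 were called lower without +Asn replicate 3. Of 39 replication-dependent histone genes, 6 were called higher and 5 lower, with 2 lower without -Asn+Fe replicate 3 and 3 lower without -Asn+Fe replicate 1 or -Asn replicate 1 or 2. Of 13 mitochondrially encoded mRNAs, 4 were called lower and 1 higher, with 2 lower when +Asn replicate 3, -Asn replicate 1 or 3, or any -Asn+Fe library was left out. This list leaned lower, with a median log2 fold change of -0.27 and 11 of the 13 below 0. Without any 1 of the -Asn libraries or -Asn+Fe replicate 1 or 3, 0 were called higher, and 2 were called higher without +Asn replicate 2. MT-CYB, a subunit of complex III, fell from 2367, 1832 and 2159 CPM in -Asn to 1492, 1430.5 and 1400.4 CPM in -Asn+Fe, a log2 fold change of -0.56 ± 0.11 SE (edgeR adjusted p = 8.80e-04).

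Several other genes stood out by size. DHRS2, a short-chain dehydrogenase, fell from 9.41, 10.3 and 9.07 CPM in -Asn to 1.13, 1.51 and 1.11 CPM in -Asn+Fe, a log2 fold change of -2.95 ± 0.18 SE (edgeR adjusted p = 4.16e-09), and had averaged 0.897 ± 0.255 (SD, n = 3) CPM in +Asn. AC026803.2, a long noncoding RNA that ends 150 bases before the start of FTL on the same strand, rose from 19 to 185 counts over 3 libraries, a log2 fold change of 3.39 ± 0.37 SE (edgeR adjusted p = 4.48e-06). VEGFD, which lies 385 bases beyond the end of PIR on the same strand, rose from 16 to 213 counts, a log2 fold change of 3.84 ± 0.34 SE (edgeR adjusted p = 3.72e-07). Counts of such neighbours may include reads of the other gene, which was not tested. Among long noncoding RNAs, 392 of 3274 tested were called higher and 197 lower, against 1953 and 2734 of 12401 protein-coding genes. The actin gene ACTB, often used as a reference, fell from 2688, 2301 and 2399 CPM in -Asn to 1607, 1628 and 1660.4 CPM in -Asn+Fe, a log2 fold change of -0.59 ± 0.08 SE (edgeR adjusted p = 2.44e-05).

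H3K4me3, a mark of active promoters, was compared through the widths of regions called in all 9 ChIP libraries. None of 13883 regions was called by limma at an adjusted p under 0.05, the smallest being 0.208, while 1042 had an unadjusted p under 0.05. Regions within 1 kb of the start of genes called higher in RNA (1514 regions) had a median log2 width difference of -0.00, and those of genes called lower (2432 regions) of -0.03. A region lay at 65.7% of the genes not called, 65.8% of all called higher and 88.2% of all called lower. For genes that rose at least 2-fold the share was 30.8%, and for those that fell at least 2-fold 75.3%. The widths at NQO1 were 1395, 1740 and 1560 bases in -Asn and 1888, 1737 and 1808 in -Asn+Fe, which overlap. Those at TFE3 did not overlap, with 1099, 1124 and 1064 bases in -Asn and 1599, 1349 and 1574 in -Asn+Fe (limma adjusted p = 0.329). Nor did those at CDCA3, with 3192, 3321 and 3225 bases in -Asn and 2959, 2741 and 2848 in -Asn+Fe (limma adjusted p = 0.350). Width is the extent of a called region and not its signal, which was not compared. The region at HMOX1 was called in 1 of 3 -Asn and 2 of 3 -Asn+Fe libraries.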

How the data were processed

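RNA was measured in 9 libraries and H3K4me3 in 9 ChIP libraries of RS4;11 cells; groups and replicate numbers came from the labels. The authors deposited raw counts per gene, aligned to hg38 with STAR 2.7.2a and counted by featureCounts (Subread 1.6.5), per the submitters' processing notes. How strand and multi-mapping reads were handled is not stated there, so overlapping, antisense and duplicated genes are less certain. The H3K4me3 table deposited by the authors holds other values, the positions of peaks called per library and merged into regions, for which the submitters' processing notes name MACS2 2.2.7.1, Bowtie2 2.4.4 and Picard 2.18.26; columns named untreated were read as +Asn. The other annotation column, gene length, was not used in any test.

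Symbols were taken by gene ID from the name table (60306 IDs matched). Counts were fitted with edgeR 4.0.16 in R 4.3.3 (TMM, filterByExpr, robust quasi-likelihood over all 9 libraries, 6 residual degrees of freedom), and widths with limma 3.58.1 (trend). Library totals of 29362707 to 42478518 counts set the precision. Both were run on simulated data with the same spread in every library, which these data do not have. That run therefore cannot measure the share of false calls here. Alternatives were DESeq2 1.42.0, other scalings and filters, a minimum 1.2-fold change, fewer libraries, all contigs, each library left out in turn and a block for the replicate number. Named genes were the 12 largest changes per direction, the 6 largest differences in CPM, up to 4 members per list and direction, near-silent genes, long noncoding RNAs and a set of fixed genes; list members named outside that rule (GSR, RRM2, RAG2 and CD24, and those given only as not called or in a group) were chosen after their values were seen. The comparison, the 33 gene lists and the tests were chosen with earlier results of these data known. Figures and tables were made with Python 3.11.15.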

Additional observations from a re-analysis of the deposited data

How the results depend on the processing

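Requiring a change of over 1.2-fold left 1085 genes higher and 1229 lower. Leaving out 1 of the 9 libraries gave 1834 to 2586 higher and 2155 to 2972 lower, and DESeq2 called 2604 and 2947. List medians kept their sign under all alternatives for the 8 lists that lead the report. With library totals only, the medians were 0.12 for iron genes, 0.59 for p53 targets, -0.88 for S phase and -1.06 for G2 and mitosis. With upper-quartile factors they were 0.12, 0.59, -0.87 and -1.05, and with the stricter filter 0.12, 0.61, -0.88 and -1.05. With no low-count filter, they were 0.47 for p53 targets and 0.60 for NF-kB genes. Over the libraries left out in turn, they ran from 0.053 to 0.12 for iron genes, 0.50 to 0.59 for p53 targets and 0.58 to 0.72 for NF-kB genes. They ran from -0.35 to -0.14 for respiratory chain subunits and from 0.29 to 0.46 for heat shock genes. The cause of these shifts was not tested.

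Of 227 named genes tested, 50 changed their call or sign under some alternative other than the minimum change. Signs turned only in genes that were not called: DDIT3 (-0.015 with no filter, and -0.077 to 0.16 over the libraries left out in turn), ATF4 (-0.15 to 0.046 over these), KMT2A (-0.015 to 0.21) and SLC40A1 (-0.36 to 0.14).

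Deviations of same-numbered libraries from their group means had correlations of -0.0777 to 0.0743, and those of differently numbered libraries -0.0887 to 0.0975. Such small values, alike for both, cannot settle whether the numbers pair the libraries. With the replicate block, 2349 genes were higher and 2808 lower. For widths, 1 region was narrower without -Asn+Fe replicate 1, and 0 were called under the other alternatives.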
